A study of Rattus norvegicus with 18 samples.

Results

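The 10 genes described here are transcription factors that tissues switch on after injury, namely Atf3, Jun, Fosl1 and Fosl2 of the AP-1 and ATF family, Cebpb and Cebpd of the C/EBP family, Myc, Klf4 and Klf6 of the KLF family, and Runx1. They were chosen by name, as the rows of the count table that carry these symbols, and make up 10 of its 30735 genes, each symbol having 1 row. The choice was made with earlier results of these data known. Sequencing covered the cortical RNA of 18 adult Sprague Dawley rats aged 8 to 10 weeks, with 6 rats and 6 libraries in each of 3 groups. The SAH 1d and SAH 7d groups had a subarachnoid hemorrhage, a bleed into the space around the brain, made by perforating an artery at its base with a filament, and were sampled 1 day or 7 days later. The sham rats had the same neck surgery under the same pentobarbital anesthesia without perforation, and no genetic modification is named for any group. Neither the sampling time of the sham rats nor the sex of any rat is stated in these sources. The methods name the model side as the cortex taken, while the labels name both sides.

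These factors are DNA-binding proteins at the end of stress and cytokine signaling. AP-1 is a dimer of a JUN protein with a FOS or ATF partner, C/EBP proteins carry the response to the IL-6 family and other inflammatory cytokines, MYC drives ribosome production and growth, and RUNX1 sets the program of blood and myeloid cells. In the brain they are known from injured neurons, reactive astrocytes, activated microglia and incoming white blood cells, and several of them are held at low levels in resting cortex.

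Values are given as CPM, counts scaled to the size of the library with TMM factors over all 18 libraries, except where FPKM, which is also scaled to transcript length, is named. Total counts per library ranged from 27270026 to 38271014. SAH 1d-3 and SAH 7d-5 stood apart from the other libraries of their groups in the levels of the factors. Many results of the factors that rest on them are therefore also given without them, while values of single list genes are given with all libraries. The summed CPM of the neuron markers lay between 6867 and 10039 for sham and between 5128 and 6515 at 1 day, and it was 2620 in SAH 7d-5, the lowest of all libraries. SAH 7d-5 also held the highest sums for monocytes and macrophages (8906 CPM, against a median of 152 in its group), meningeal fibroblasts (4181, median 379), microglia (2452, median 641) and neutrophils (90.6, median 11.3). SAH 1d-3 had the highest sums of its group for neutrophils (62.9, median 9.4) and for monocytes and macrophages (509, median 126). It was also the highest for endothelial cells (261, median 148), red cells (154, median 68.8), meningeal fibroblasts (453, median 298), mural cells and T cells. For neurons and microglia it was the lowest of its group. Summed astrocyte markers lay between 4514 and 5681 CPM at 1 day and between 2084 and 3811 CPM for sham, without overlap. The sum did not reflect the list as a whole. Of the 6 astrocyte markers, 1 was higher and 1 lower at 1 day in edgeR, with a median log2 fold change of -0.17. Choroid plexus markers summed to 684 CPM in SAH 1d-4 and 993 CPM in SAH 1d-6, against 3.67 to 33.2 CPM in the other SAH 1d libraries. The part of these cells in the changes at 1 day was not tested. No marker gene of these lists that is in the table was at 0 in a whole group. The labelled tissue matched its neuron, astrocyte and oligodendrocyte markers, which were present in every group. In whole cortex, fewer cells of a type and less RNA per cell cannot be told apart.

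The promoters of 3 factors that rose at 1 day are shown here because their letters differ in base composition and in the binding motifs they hold. Each is the 250 bases before the start of the gene, from RefSeq in the GRCr8 assembly, written 5′ to 3′ on the strand of the gene, and the capitals mark motif matches, searched on both strands. The methods name another rat assembly, Rnor_6.0, for the counts, while the submitters' notes list a mouse build, mm9, and the labels mention mice. The gene identifiers are those of rat, and no coordinates were joined to the counts. The table held promoters of 6 of the 10 factors, and it held none of Atf3, Jun, Cebpd and Myc. Fosl1 lies at chr1:212183635-212183884 (plus strand, 62% G and C), Cebpb at chr3:176816755-176817004 (plus strand, 80%) and Klf4 at chr5:75078593-75078842 (minus strand, 43.2%), against a median of 51.2% over 33469 promoters.
Fosl1: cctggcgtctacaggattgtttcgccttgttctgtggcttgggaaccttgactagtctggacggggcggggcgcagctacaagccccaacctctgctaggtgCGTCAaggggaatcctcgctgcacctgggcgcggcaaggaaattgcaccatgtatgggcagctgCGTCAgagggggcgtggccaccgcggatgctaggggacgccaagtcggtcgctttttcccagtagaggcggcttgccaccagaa
Cebpb: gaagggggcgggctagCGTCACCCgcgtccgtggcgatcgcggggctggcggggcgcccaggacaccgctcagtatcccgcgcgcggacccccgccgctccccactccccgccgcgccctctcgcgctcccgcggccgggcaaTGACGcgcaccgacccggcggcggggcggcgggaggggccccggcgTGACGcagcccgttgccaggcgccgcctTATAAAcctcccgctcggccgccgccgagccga
Klf4: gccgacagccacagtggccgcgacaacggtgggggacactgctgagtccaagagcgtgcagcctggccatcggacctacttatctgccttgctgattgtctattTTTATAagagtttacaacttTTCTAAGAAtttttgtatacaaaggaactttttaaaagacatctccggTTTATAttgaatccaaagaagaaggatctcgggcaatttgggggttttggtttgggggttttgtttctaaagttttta
The capitals in Fosl1 mark the core of the cyclic AMP response element, TGACG on either strand, which JUN and ATF dimers are known to bind. It occurred at 148 to 144 and at 84 to 80 bases before the start of Fosl1. Cebpb held it at 234 to 230, 107 to 103 and 61 to 57 bases before its start. Its first match overlapped a CACCC box, the motif of KLF factors, at 231 to 227, and it also had a TATA box (TATAAA) at 33 to 28. Klf4 held the STAT motif TTCNNNGAA at 126 to 118 and a TATA box on the other strand at 146 to 141 and at 78 to 73. Of all promoters of this length, 18.2% held the TGACG core, 7.67% the STAT motif, 49.2% a CACCC box and 12.9% a TATA box. The other promoters held 1 match each in Fosl2 (CACCC, at 76 to 72) and Klf6 (the E box CACGTG, at 56 to 51, found in 5.59% of promoters), and none of the searched motifs in Runx1. None of the 6 windows held the full AP-1 motif TGANTCA (6.34% of promoters), the full element TGACGTCA (1.59%), the C/EBP motif TTGCNNAA (9.22%) or the RUNX motif TGTGGT (14.5%). These are matches of letters only.

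One day after the bleed, 7 of the 10 factors were higher than in the sham group and none was lower, at a Benjamini-Hochberg adjusted p under 0.05 in the quasi-likelihood F test of edgeR. They were Atf3, Cebpd, Myc, Cebpb, Fosl1, Klf4 and Jun, in order of the size of the change, from a log2 fold change of 4.61 for Atf3 to 1.13 for Jun. Over all 18444 genes tested, 14.9% were higher by the same rule. All 7 also passed a 2-fold threshold, as did 5.57% of all genes in that direction. All 10 factors had a positive log2 fold change and an unadjusted p under 0.05, as had 21.3% of all genes in that direction, and Fosl2, Runx1 and Klf6 did not pass after adjustment. DESeq2 called 9 factors higher, adding Klf6 (adjusted p = 0.0399) and Runx1 (adjusted p = 0.032), with 16.6% of all genes, and the voom test of limma called 7 (18.9%), as did the fit of all 18 libraries (8.18%). Without SAH 1d-3 the edgeR count remained 7, with 15.4% of all genes higher. In 6 factors every SAH 1d library lay above every sham library, as in 7.89% of all genes. The median log2 fold change was 1.66 over the 10 factors and 0.0086 over all genes. Without SAH 1d-3 the median of the factors was 1.09, and 6 of them passed the 2-fold threshold.

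**Figure D1:**
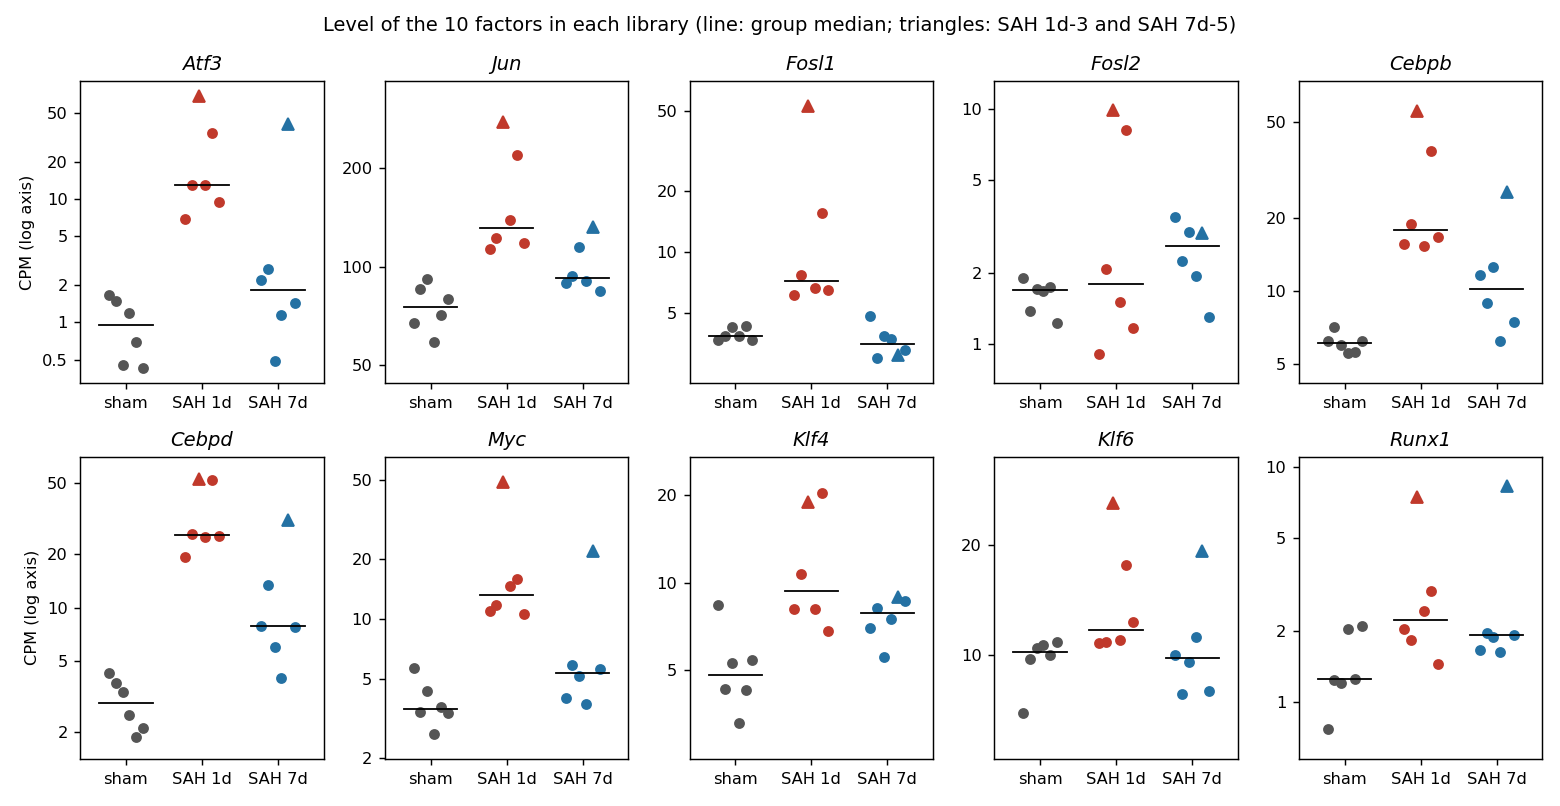
CPM of each factor (vertical log axis, with its own range in each panel) in the 6 libraries of each group (horizontal axis); points are libraries, triangles mark SAH 1d-3 with SAH 7d-5, and lines are group medians. Atf3, Jun, Fosl1, Cebpb, Cebpd and Myc do not overlap between sham and SAH 1d, while Fosl2, Klf4, Klf6 and Runx1 do.

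Atf3, a factor that is close to silent in resting tissue and marks stressed and injured cells, had the largest fold change of the group. It ranged from 0.429 to 1.67 CPM in the sham group, with a median of 0.95, and from 6.97 to 68.1 CPM at 1 day, with a median of 13.1. The lowest SAH 1d library thus lay above the highest sham library. This was a log2 fold change of 4.61 (SE 0.63, adjusted p = 0.000389), which is 24.4-fold. Without SAH 1d-3, the highest library, it was 3.95 (SE 0.46, adjusted p = 6.52e-05), or 15.4-fold.

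Jun, the AP-1 subunit that JNK kinases phosphorylate, was the most abundant of the 10 factors in the sham group, at a mean of 22.7 FPKM against 4.44 FPKM for Klf6, the next. Its CPM ranged from 58.6 to 91.4 there (median 75.2) and from 113 to 277 at 1 day (median 131), with no overlap. Jun rose by 1.13 on the log2 scale (SE 0.22, adjusted p = 0.00359), a smaller fold change than that of Atf3 from a higher level. Without SAH 1d-3 the log2 fold change of Jun was 0.91 (SE 0.17, adjusted p = 0.00164), below the 2-fold threshold. The proteins of Jun and Atf3 can pair in 1 dimer, and the ratio of these genes is described further on.

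Fosl1 and Fosl2 encode the FOS-related partners FRA-1 and FRA-2, which are known for a slower and longer-lasting response than FOS. Fosl1 was held in a narrow range in the sham group, from 3.67 to 4.3 CPM (median 3.87), and spread from 6.12 to 52.8 CPM at 1 day (median 7.2). The groups did not overlap, and the log2 fold change was 2.02 (SE 0.52, adjusted p = 0.0135). Without SAH 1d-3 the log2 fold change of Fosl1 was 1.11 (SE 0.22, adjusted p = 0.00287), 2.16-fold in place of 4.05-fold. Fosl2 ranged from 1.22 to 1.9 CPM in the sham group (median 1.69) and from 0.905 to 9.87 CPM at 1 day (median 1.79). It was above all sham libraries in 3 SAH 1d libraries and below all of them in 2, so the sham range lay inside that of SAH 1d. Its log2 fold change of 1.30 (SE 0.55) had an adjusted p of 0.101. The value fell to 0.78 (SE 0.48, adjusted p = 0.257) without SAH 1d-3 and to 0.96 (SE 0.55, adjusted p = 0.216) without SAH 1d-5.

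Cebpb and Cebpd, the C/EBP members that inflammatory cytokines induce, both rose at 1 day. Cebpd had the smallest error relative to its change of the 10 factors. It ranged from 1.89 to 4.3 CPM in the sham group (median 2.94) and from 19.4 to 53 CPM at 1 day (median 25.6). Cebpd rose by 3.49 on the log2 scale (SE 0.31, adjusted p = 2.31e-05), or 11.2-fold, and 3.30 (SE 0.28) without SAH 1d-3. Cebpb, whose protein is known as NF-IL6, ranged from 5.53 to 7.08 CPM in the sham group (median 6.08) and from 15.3 to 55.5 CPM at 1 day (median 17.9). Cebpb thus rose by 2.14 on the log2 scale (SE 0.32, adjusted p = 0.000685), or 4.4-fold, and 1.78 (SE 0.22) without SAH 1d-3. Neither gene had overlapping groups.

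Myc, which drives ribosome biogenesis and cell growth, ranged from 2.63 to 5.66 CPM in the sham group (median 3.5) and from 10.6 to 49.2 CPM at 1 day (median 13.2). The groups did not overlap, and the log2 fold change was 2.31 (SE 0.39, adjusted p = 0.00143), or 4.95-fold. Without SAH 1d-3, which held 49.2 CPM against at most 15.8 CPM in the other SAH 1d libraries, it was 1.74 (SE 0.18, adjusted p = 3.24e-05), or 3.33-fold.

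Of the KLF factors, Klf4 passed the test at 1 day and Klf6 did not, and the difference between them is tested further on as a ratio. Klf4, known from endothelium, astrocytes and activated macrophages, ranged from 3.31 to 8.36 CPM in the sham group (median 4.81) and from 6.83 to 20.3 CPM at 1 day (median 9.4). Its log2 fold change was 1.24 (SE 0.31, adjusted p = 0.0114), and sham-1 was the only sham library that reached into the SAH 1d range. Klf6, known as an early injury gene that also promotes axon growth, ranged from 6.96 to 10.9 CPM in the sham group (median 10.2) and from 10.8 to 26.1 CPM at 1 day (median 11.7). In 5 of 6 SAH 1d libraries it was above all sham libraries, but 4 of the 6 held no more than 12.3 CPM. For Klf6 the log2 fold change was 0.60 (SE 0.22, adjusted p = 0.0639), and 0.35 (SE 0.15, adjusted p = 0.1) without SAH 1d-3.

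Runx1, a regulator of blood cell development that microglia and macrophages use in activated states, was a low gene throughout. It ranged from 0.766 to 2.11 CPM in the sham group (median 1.25) and from 1.45 to 7.46 CPM at 1 day (median 2.24), with 3 SAH 1d libraries above all sham libraries. Its log2 fold change was 1.08 (SE 0.40, adjusted p = 0.0616), and 0.57 (SE 0.27, adjusted p = 0.141) without SAH 1d-3. That library also had the highest marker sums of its group for several cell lists, those of neutrophils and of monocytes and macrophages among them. The part of these cells in the value was not tested. Without SAH 1d-6 the log2 fold change of Runx1 was 1.22 (SE 0.39, adjusted p = 0.0417), past the threshold.

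**Figure D2:**
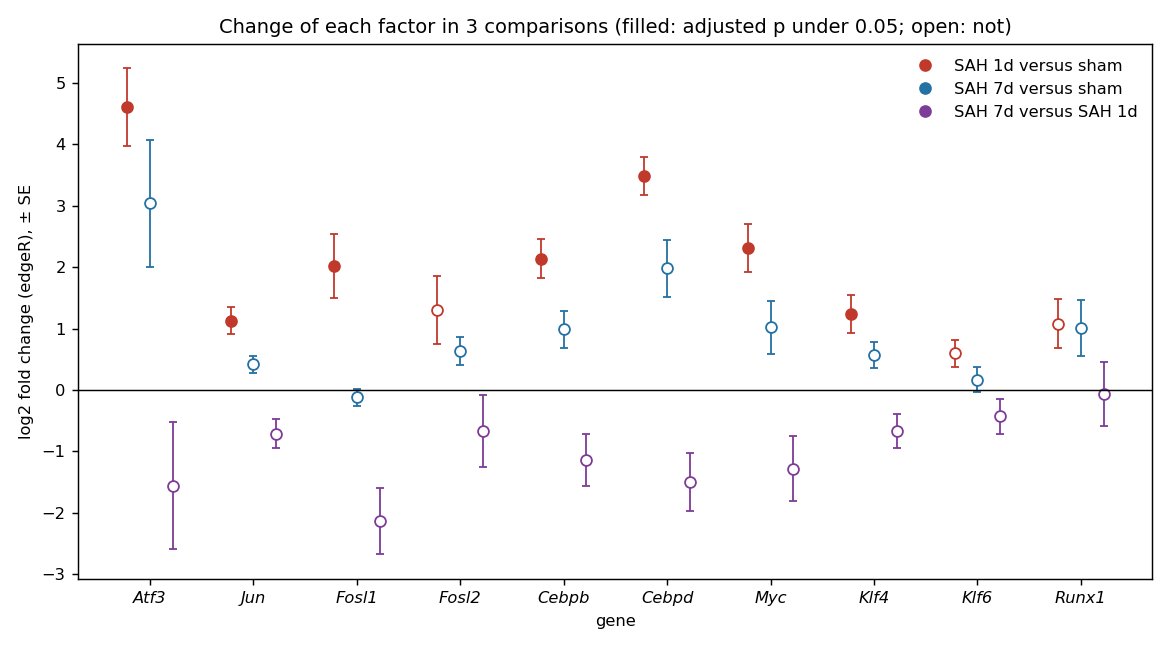
Log2 fold change of each factor (vertical axis, with bars of 1 SE) in the 3 comparisons, from edgeR on 12 libraries each; filled points have an adjusted p under 0.05. The 7 filled points all belong to SAH 1d versus sham, and all 10 values of SAH 7d versus SAH 1d lie below 0.

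At 7 days after the bleed, no factor differed from the sham group in edgeR after adjustment, and neither did any other gene, the share over all 18444 genes being 0%. At an unadjusted p under 0.05, 8 of the 10 factors passed, all of them higher, against 11.7% of all genes in that direction, and 9 of 10 had a positive log2 fold change, with a median of 0.81 against -0.0039 over all genes. Without SAH 7d-5, 5 factors passed the unadjusted threshold and the median was 0.44. Over all genes, 12.6% passed in either direction in that fit, and 15.4% with all libraries. DESeq2 called 2 factors, both higher, among 2.2% of all genes, Cebpd (adjusted p = 0.00219) and Cebpb (adjusted p = 0.0476), and gave no adjusted p for Atf3 and Myc. The voom test of limma called 0 of the 10 factors (0.0108% of all genes higher), and so did the edgeR fit of all 18 libraries (0.0434%). No factor had separate groups, whereas 0.797% of all genes lay entirely above the sham group. This comparison shares its sham libraries with that of SAH 1d.

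Cebpd had the largest log2 fold change relative to its error at 7 days. It ranged from 4.04 to 31.2 CPM in the SAH 7d group (median 7.9), and 5 of the 6 libraries lay above every sham library. The log2 fold change of Cebpd against sham was 1.98 (SE 0.46, adjusted p = 0.214), and 1.40 (SE 0.30, adjusted p = 0.113) without SAH 7d-5. Cebpb ranged from 6.23 to 25.7 CPM (median 10.2), also with 5 of 6 libraries above every sham library. Its log2 fold change was 0.99 (SE 0.30, adjusted p = 0.214), and 0.63 (SE 0.17, adjusted p = 0.151) without SAH 7d-5.

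Fosl2 was the other factor with 5 of 6 SAH 7d libraries above every sham library. It ranged from 1.3 to 3.48 CPM (median 2.61), with a log2 fold change of 0.64 (SE 0.23, adjusted p = 0.263). SAH 7d-5 held 2.96 CPM, inside the range of the others, and the log2 fold change was 0.58 (SE 0.24) without that library. Fosl1 was the only factor with a log2 fold change below 0, at -0.12 (SE 0.14, adjusted p = 0.653). Its SAH 7d libraries ranged from 3 to 4.84 CPM (median 3.51), with 1 above and 3 below every sham library.

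Atf3 at 7 days rested on 1 library. SAH 7d-5 held 40.7 CPM, inside the range of the SAH 1d group, and the other 5 libraries held 0.484 to 2.7 CPM. Against sham the log2 fold change was 3.04 (SE 1.03, adjusted p = 0.242) with all libraries and 0.70 (SE 0.45, adjusted p = 0.557) without SAH 7d-5. Runx1 had the same pattern, with 8.26 CPM in SAH 7d-5 against 1.64 to 1.97 CPM in the other 5 libraries and log2 fold changes of 1.01 (SE 0.45) and 0.35 (SE 0.25). Myc had 22.1 CPM in SAH 7d-5 against 3.73 to 5.86 CPM, with log2 fold changes of 1.02 (SE 0.43) and 0.36 (SE 0.20).

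Jun ranged from 83.9 to 132 CPM in the SAH 7d group (median 91.9), all 6 libraries being above the sham mean and 3 above every sham library. Its log2 fold change against sham was 0.42 (SE 0.14, adjusted p = 0.23). Klf4 ranged from 5.55 to 8.92 CPM (median 7.86), also with all 6 libraries above the sham mean, and had a log2 fold change of 0.57 (SE 0.21, adjusted p = 0.259). Klf6 ranged from 7.86 to 19.3 CPM (median 9.82), 3 libraries being above and 3 below the sham mean. The log2 fold change of Klf6 was 0.17 (SE 0.21), and its sign turned without SAH 7d-5, to -0.06 (SE 0.13).

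Between the SAH groups, all 10 log2 fold changes of SAH 7d versus SAH 1d were below 0, with a median of -0.93 against 0.0285 over all genes, and none passed the adjusted test in edgeR, where 1.08% of all genes were lower. The SAH libraries are those of the comparisons with sham. At an unadjusted p under 0.05, 6 factors passed, all lower, against 8.05% of all genes in that direction and 14.7% in either. There were 3 without SAH 1d-3 (median log2 fold change -0.60), against 14.2% of all genes in either direction. Without SAH 7d-5 there were 8 (median -1.17), against 25.9% of all genes in either direction. The count after adjustment depended on SAH 7d-5. This library was the highest of its group for 8 of the 10 factors, so leaving it out must deepen their fall. Without SAH 7d-5, 5 factors were lower at 7 days, Atf3, Cebpd, Myc, Cebpb and Fosl1, while 5.19% of all genes were. Leaving out SAH 1d-3 as well, the same 5 and Jun were lower, against 7.49% of all genes. DESeq2 called 2 factors lower (3.5% of all genes) and voom with quality weights called 6 (8.37%), and the fit of all 18 libraries called 2 (2.94%). Leaving out SAH 1d-3 alone gave 1, Fosl1, with 1.53% of all genes lower.

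Fosl1 was the only factor whose SAH 7d libraries, at 3 to 4.84 CPM, all lay below its SAH 1d libraries, at 6.12 to 52.8 CPM. Of all genes, 2.11% were separated in this direction. The log2 fold change of Fosl1 was -2.14 (SE 0.54, adjusted p = 0.0753), and -1.19 (SE 0.26, adjusted p = 0.0115) without both libraries. Atf3 had -1.56 (SE 1.03, adjusted p = 0.518) with all libraries, -3.92 (SE 0.68, adjusted p = 0.00714) without SAH 7d-5 and -0.89 (SE 1.02, adjusted p = 0.745) without SAH 1d-3. For Cebpd the log2 fold change was -1.50 (SE 0.47, adjusted p = 0.149), and -2.10 (SE 0.35, adjusted p = 0.00597) without SAH 7d-5. Without SAH 7d-5 Cebpb went from -1.14 (SE 0.42, adjusted p = 0.22) to -1.52 (SE 0.37, adjusted p = 0.0287) and Myc from -1.28 (SE 0.53, adjusted p = 0.283) to -1.96 (SE 0.41, adjusted p = 0.0152). Without SAH 1d-3 the log2 fold changes were smaller, at -1.23 for Fosl1, -1.32 for Cebpd, -0.79 for Cebpb and -0.71 for Myc, and Fosl1 alone passed (adjusted p = 0.0331).

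Jun was lower than in all SAH 1d libraries in 4 of 6 SAH 7d libraries, with a log2 fold change of -0.71 (SE 0.23, adjusted p = 0.169). Klf4 had a log2 fold change of -0.67 (SE 0.28, adjusted p = 0.281). Fosl2 (-0.67, SE 0.58) and Klf6 (-0.43, SE 0.29) had wider errors relative to their log2 fold changes than Klf4. Klf4, Fosl2 and Klf6 did not pass the adjusted test in the fits that left out either library or both. Runx1 had mean levels of 3.03 CPM at 1 day and 2.9 CPM at 7 days. In log2 fold change this was -0.06 (SE 0.52), 0.45 (SE 0.46) without SAH 1d-3 and -0.75 (SE 0.38) without SAH 7d-5.

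**Figure D3:**
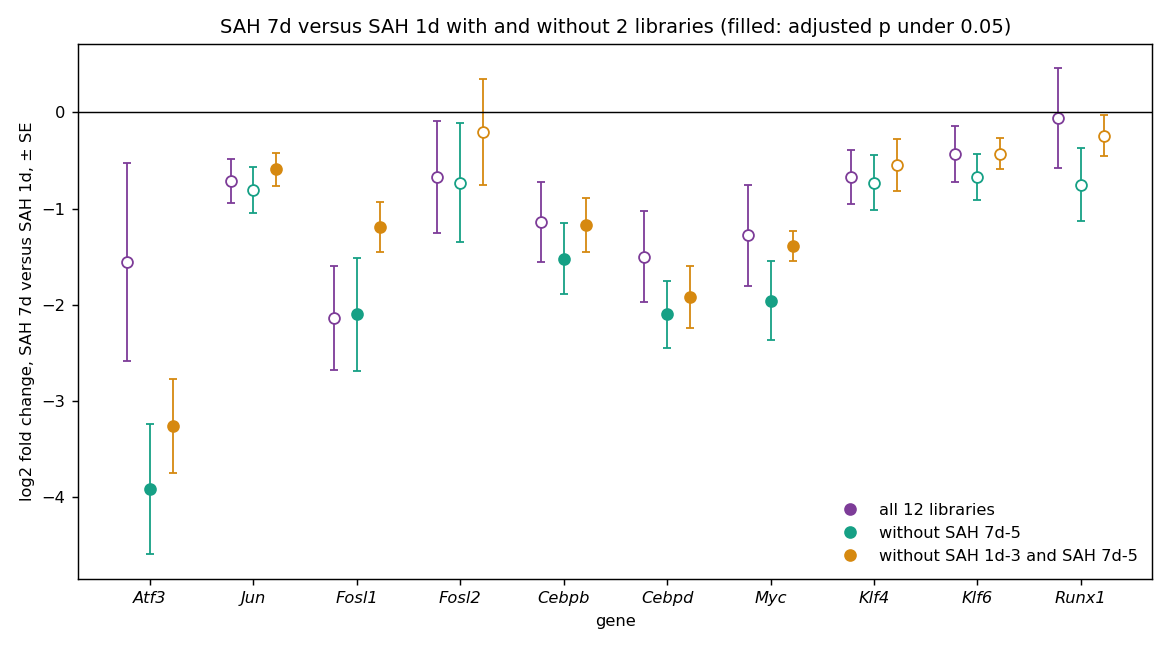
Log2 fold change of SAH 7d versus SAH 1d for each factor (vertical axis, bars of 1 SE) with all 12 libraries, with SAH 7d-5 left out and with both outlying libraries left out; filled points have an adjusted p under 0.05 in edgeR. No point is filled with all libraries, 5 without SAH 7d-5 and 6 without both, and Atf3 moves from -1.56 to -3.92. SAH 7d-5 was the highest SAH 7d library for 8 of the 10 factors, so leaving it out must deepen their fall.

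Single libraries held the highest levels of most factors within each SAH group. SAH 1d-3 was the highest library of its group for 9 of the 10 factors, while it was the highest for 33.1% of all genes. Its level over the median of the other 5 libraries ranged from 2.1-fold for Cebpd to 7.89-fold for Fosl1. SAH 1d-5 came second for the same 9 factors and was the highest for Klf4, at 20.3 CPM. Its level over the median of the others ranged from 1.34-fold for Myc to 5.42-fold for Fosl2. SAH 1d-5 had the lowest monocyte and macrophage sum of the SAH 1d group (103 CPM) and the highest neuron sum (6515 CPM), and its neutrophil sum was 8.27 CPM. The part of cell content in the levels of either library was not tested.

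SAH 7d-5 was the highest of its group for 8 of the 10 factors, and for 38.7% of all genes. It held Atf3 at 28.4-fold the median of the other 5 libraries, Runx1 at 4.34-fold, Myc at 4.31-fold and Cebpd at 3.97-fold. Fosl1 was not raised in it, at 0.827-fold, nor was Fosl2 far from the others, at 1.32-fold. SAH 1d-3 thus had high Atf3 together with high Fosl1 (52.8 CPM), and SAH 7d-5 had high Atf3 with Fosl1 at 3.09 CPM, below every sham library. SAH 7d-5 is also the library with the high macrophage, fibroblast and microglia sums and the low neuron sum, and the part of that cell mixture in its values was not tested.

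**Figure D4:**
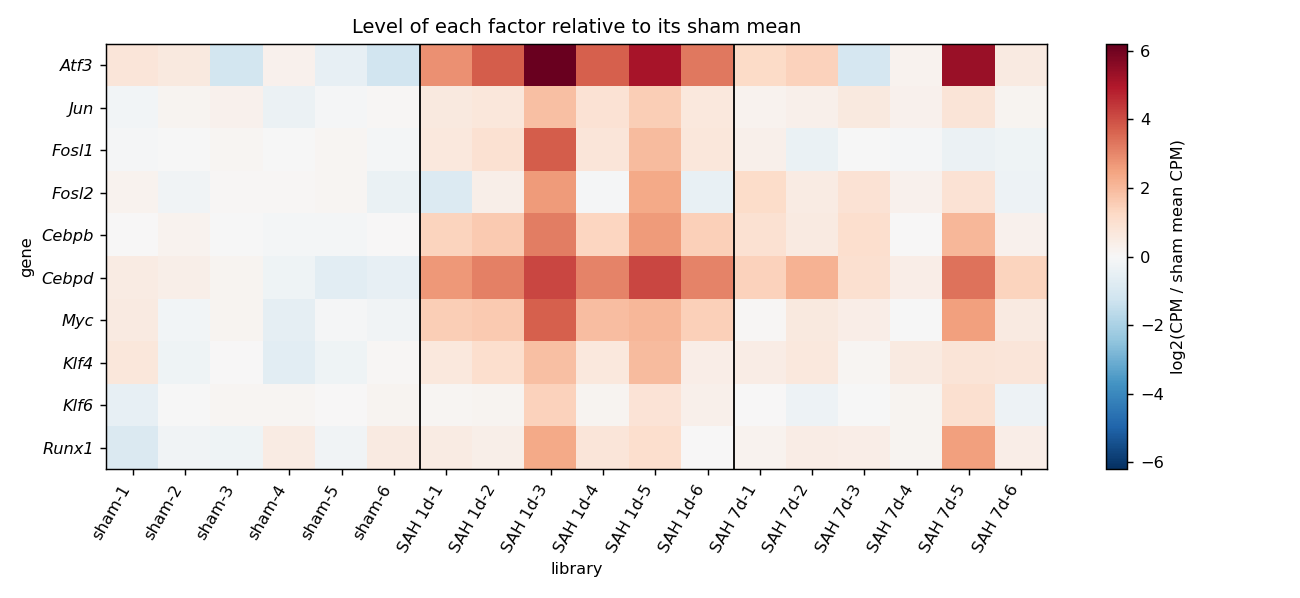
Level of each factor (rows) in each of the 18 libraries (columns), as log2 of CPM over the mean CPM of the sham group; red is above and blue below the sham mean, and lines part the groups. SAH 1d-3, SAH 1d-5 and SAH 7d-5 are the reddest columns, and Fosl1 in SAH 7d-5 is pale.

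Levels between genes were compared as FPKM. In the sham group Jun had the highest mean, 22.7 FPKM, followed by Klf6 at 4.44, Cebpb at 4.05, Cebpd at 2.42, Fosl1 at 2.19, Klf4 at 2, Fosl2 at 1.94, Myc at 1.56, Runx1 at 0.659 and Atf3 at 0.376. The FPKM ranges of neighbours in this order overlapped, apart from Jun above Klf6, Cebpb above Cebpd and Myc above Runx1. At 1 day the order by mean was Jun (53.3 FPKM), Cebpd (29.4), Cebpb (19.1), Atf3 (12.6), Fosl1 (9.51), Myc (8.12), Klf6 (7.38), Klf4 (5.13), Fosl2 (5.12) and Runx1 (1.51), with overlapping ranges between all neighbours. Atf3 thus went from the last place to the fourth and Cebpd from the fourth to the second. At 7 days Jun was again first by mean with 31.4 FPKM, followed by Cebpd with 9.97 and Cebpb with 8.35, and Runx1 was last with 1.41. SAH 7d-5 held 26.8 FPKM of Cebpd and 18 FPKM of Cebpb. By median the order differed, with Cebpb (7.04 FPKM) above Cebpd (6.58) and Atf3 (0.716) below Runx1 (0.921).

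Ratios between factors of the same family or dimer were taken from FPKM after the levels had been seen, and give 12 exact two-sided permutation tests over 6 against 6 libraries (4 ratios in 3 comparisons), whose smallest possible p is 0.00216. Cebpd lay below Cebpb in 6 of 6 sham libraries, with a ratio of 0.414 to 0.847 (median 0.606). It lay above Cebpb in 6 of 6 SAH 1d libraries, with a ratio of 1.17 to 2.01 (median 1.68). On the log2 scale this ratio averaged -0.80 ± 0.41 (SD, n = 6) for sham and 0.70 ± 0.27 (SD, n = 6) at 1 day, 1.50 apart (exact permutation p = 0.00216, adjusted over the 12 tests 0.013). At 7 days the ratio was above 1 in 3 of 6 libraries, from 0.583 to 1.85, and the log2 ratio was 0.87 above that of the sham group (exact permutation p = 0.0238, adjusted 0.0445). Between 7 days and 1 day the log2 ratio differed by -0.62 (exact permutation p = 0.0563, adjusted 0.0844). SAH 1d-3 had the lowest ratio of its group, 1.17, and SAH 7d-5 had 1.49.

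The ratio of Fosl1 to Fosl2 moved in opposite directions at the 2 times. It was 0.889 to 1.4 in the sham group (median 1.14), 0.882 to 3.12 at 1 day (median 2.26) and 0.477 to 1.19 in the SAH 7d group (median 0.625). On the log2 scale it was 0.80 higher than sham at 1 day (exact permutation p = 0.0216, adjusted 0.0445) and 0.71 lower than sham at 7 days, a difference of -0.71 (exact permutation p = 0.0173, adjusted 0.0445). The SAH 7d group lay below the SAH 1d group by a log2 difference of -1.51 (exact permutation p = 0.00649, adjusted 0.026). With SAH 1d-3 and SAH 7d-5 left out, these differences were 0.73, -0.60 and -1.34, with exact permutation p-values of 0.039, 0.026 and 0.0238. These p-values were not adjusted over the 12 tests. SAH 1d-5 was the only SAH 1d library with a ratio below 1, and SAH 7d-6 the only SAH 7d library above it.

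Atf3 relative to Jun had an FPKM ratio of 0.00545 to 0.0276 for sham and 0.0988 to 0.401 at 1 day, a log2 difference of 3.67 (exact permutation p = 0.00216, adjusted 0.013). At 7 days the ratio ranged from 0.0045 to 0.502, the highest value of all 18 libraries being that of SAH 7d-5. Its log2 difference from SAH 1d was -2.50 (exact permutation p = 0.026, adjusted 0.0445) and that from sham 1.17 (exact permutation p = 0.31, adjusted 0.338). Klf4 relative to Klf6 gave no test that passed, with a log2 difference of 0.61 at 1 day (exact permutation p = 0.0693, adjusted 0.0924) and 0.51 at 7 days against sham (exact permutation p = 0.145, adjusted 0.174). Sham-1, whose Klf4 was the highest and Klf6 the lowest of the sham group, had the highest sham ratio, 1.02, so leaving it out must widen these differences. Without it they were 0.85 (exact permutation p = 0.00433) and 0.75 (exact permutation p = 0.0152), not adjusted. These were the lowest p-values over 13 fits with libraries left out. The exact permutation p reached 0.136 at 1 day and 0.273 at 7 days in others.

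**Figure D5:**
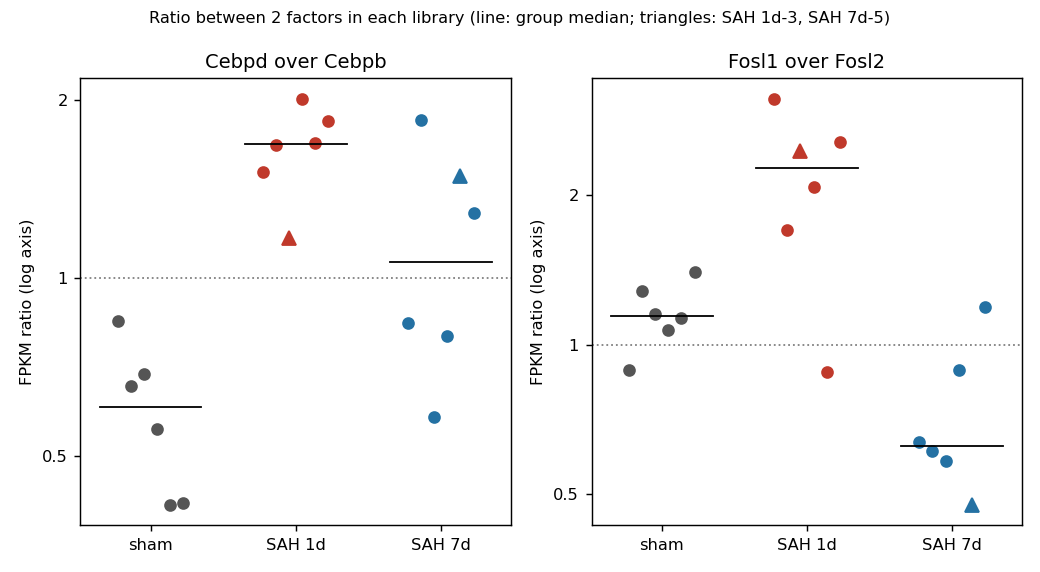
FPKM ratio of Cebpd to Cebpb and of Fosl1 to Fosl2 (vertical log axes) in each library by group; lines are group medians, triangles are SAH 1d-3 and SAH 7d-5, and the dotted line is a ratio of 1. The first ratio lies below 1 in all 6 sham libraries and above 1 in all 6 SAH 1d libraries, and the second has its lowest value, 0.477, in SAH 7d-5.

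As a description over the 18 libraries, which share groups and single strong libraries, Cebpb and Cebpd had the most similar levels of any pair of the factors (Spearman rho 0.965). Myc was most similar to Cebpd (0.934), Atf3 to Cebpd (0.928) and Jun to Cebpb (0.903), whereas Fosl2 reached at most 0.465, with Klf4. Fosl1 and Fosl2 had a rho of 0.143 over all libraries and 0.812 for the deviations from their group means. The genes outside the 10 whose levels ran most like the mean of the factors were Zfp36 (0.973), an RNA-binding protein that shortens the life of inflammatory transcripts, Dcaf13 (0.967), Stat3 (0.965), the transcription factor of IL-6 signaling, Hmox1 (0.961), the enzyme that breaks down heme, and Rgs16 (0.961). Over the 16 libraries other than SAH 1d-3 and SAH 7d-5 they were Dcaf13 (0.968), Ptpn1 and Gadd45b (0.959 each), Alkbh1 and Eif4ebp1 (0.944 each).

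The relatives of the 10 factors were described by lists of the same families, 3 lists of their signaling inputs and 5 lists of known target genes, 137 tested genes in all. At 1 day, 69 of them were higher and 5 lower in edgeR, and 67 and 6 without SAH 1d-3. Of all genes, 14.9% were higher and 10.5% lower, and 15.4% and 13% without SAH 1d-3, and the counts of single lists are to be read against these shares. The median log2 fold change was 0.57 over the 137 genes. The lists were chosen with earlier results of these data known, and some lists share genes, so their counts are descriptions only.

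Among the other AP-1 and ATF genes, 8 of 15 tested were higher at 1 day and none was lower. Maff, a small MAF protein that pairs with AP-1 and NRF2 factors, went from 0.662 ± 0.215 CPM (SD, n = 6) to 13.4 ± 15.2 CPM (log2 fold change 4.34, SE 0.61, adjusted p = 0.000505). Batf, a factor of immune cells, went from 0.028 ± 0.0445 to 0.735 ± 0.59 CPM (log2 fold change 4.54, SE 0.77, adjusted p = 0.00149). Atf5 and Atf7 rose by 1.08 (SE 0.13) and 0.64 (SE 0.14) on the log2 scale, without overlap between the groups. The immediate early genes Fos (2.03, SE 0.63, adjusted p = 0.0319) and Fosb (2.34, SE 0.76, adjusted p = 0.0393) passed with overlapping groups, and Junb (1.05, SE 0.43, adjusted p = 0.0906) and Jund (0.01, SE 0.09) did not pass. These 4 were picked after their values were seen. Without SAH 1d-3 the list had 6 genes higher.

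All 4 tested other C/EBP genes rose, each by less than 2-fold. Ddit3, the CHOP protein of the unfolded protein response, rose by 0.89 on the log2 scale (SE 0.17, adjusted p = 0.00325), Cebpg by 0.64 (SE 0.13), Cebpa by 0.52 (SE 0.13) and Cebpz by 0.47 (SE 0.15). Cebpe, a factor of maturing granulocytes, had no counts in any sham library, had counts in 5 SAH 1d and 4 SAH 7d libraries at up to 1.09 CPM, and was not tested. The other KLF genes showed 1 gene higher and 1 lower of 13 tested, Klf2 of the endothelium (0.85, SE 0.23, adjusted p = 0.0187) and Klf9 (-0.36, SE 0.12, adjusted p = 0.0373). Klf17 had no counts in any library. Of the RUNX relatives, Runx2 rose (1.88, SE 0.31, adjusted p = 0.0013) and the other 4 did not pass. Of the MYC partners, Mxd1, an antagonist of MYC, rose by 0.57 on the log2 scale (SE 0.08, adjusted p = 0.000667) and Mga by 0.41 (SE 0.14), 2 of 10 tested, and without SAH 1d-3 the count was 1.

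Of the kinase genes and their activators that signal to AP-1, 4 of 16 were higher and 2 lower at 1 day. The stress sensors Gadd45a (1.86, SE 0.34), Gadd45b (2.13, SE 0.38) and Gadd45g (2.21, SE 0.50) all rose in log2 fold change, and Mapk9, which encodes JNK2, fell by 0.34 on the log2 scale (SE 0.08, adjusted p = 0.00738). Of 9 MAPK phosphatases, Dusp16 (0.89, SE 0.16) and Dusp5 (1.85, SE 0.55) rose. The IL-6 family input to C/EBP had 11 of 12 genes higher. Socs3, the feedback inhibitor of this pathway, went from 0.516 ± 0.272 to 17.6 ± 21.4 CPM (SD, n = 6, log2 fold change 5.10, SE 0.70, adjusted p = 0.000389). Stat3 rose by 1.41 on the log2 scale (SE 0.22, adjusted p = 0.000858), the cytokine Lif by 6.17 (SE 1.18, adjusted p = 0.003) and the oncostatin M receptor gene Osmr by 2.91 (SE 0.59, adjusted p = 0.00403).

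Of the known AP-1 target genes, 14 of 14 tested were higher at 1 day, with a median log2 fold change of 3.52, and 13 without SAH 1d-3. DESeq2 called 7 of these 14 higher and gave no adjusted p for the other 7. They included Hmox1 (4.48, SE 0.47), the intermediate filament gene Vim (1.93, SE 0.22), the monocyte attractant Ccl2 (7.56, SE 1.04) and the adhesion receptor Cd44 (3.57, SE 0.52). Known C/EBP targets had 9 of 10 genes higher (6 in DESeq2, which gave no adjusted p for 3), among them Lcn2 (5.57, SE 0.42, adjusted p = 9.39e-06), an iron-carrier binding protein that went from 0.656 ± 0.125 to 31.3 ± 19.2 CPM (SD, n = 6), and the complement gene C3 (2.43, SE 0.35). The integrin Itgam (2.72, SE 0.21) and the endotoxin receptor Cd14 (4.59, SE 0.78) rose as well. Of the known RUNX1 targets, 6 of 8 were higher, with Csf2rb, a receptor subunit of blood cells, highest at 5.23 (SE 0.47), followed by Itgb2 (2.18, SE 0.21), Ptprc (1.86, SE 0.44) and Spi1 (1.64, SE 0.23), all of them genes of white blood cells and microglia. The summed markers of monocytes and macrophages lay at 103 to 509 CPM at 1 day and at 59.9 to 102 CPM for sham, and the part of such cells in these counts was not tested. Orm1 had no counts in the sham and SAH 7d groups and was not tested.

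Of the known MYC targets, 5 of 13 were higher, with a median log2 fold change of 0.36. Odc1, the first enzyme of polyamine synthesis, rose by 1.00 on the log2 scale (SE 0.29), the nucleolar gene Nop58 by 0.86 (SE 0.20) and Fbl, also of the nucleolus, by 0.66 (SE 0.18), and Cdk4 by 0.36 (SE 0.11). The axon injury targets of Atf3 and Jun split. The chaperone Hspb1 went from 4.35 ± 1.74 to 169 ± 85.7 CPM (SD, n = 6, log2 fold change 5.28, SE 0.35, adjusted p = 3.15e-06), and Gal (2.97, SE 0.69), Gadd45a and Sprr1a (3.01, SE 1.04, adjusted p = 0.0495) were also higher, Gal and Sprr1a being named after their values were seen. Gap43, a growth cone protein, fell by 0.69 on the log2 scale (SE 0.13, adjusted p = 0.00229) and Stmn2 by 0.60 (SE 0.10, adjusted p = 0.00106). All 7 neuron markers were lower at 1 day as well, and the part of neuron content in these values was not tested.

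At 7 days, none of the 137 list genes differed from sham in edgeR, while 52 had an unadjusted p under 0.05 (15.4% of all genes), DESeq2 called 16 (2.49% of all genes) and voom 1 (0.0108%). Between SAH 7d and SAH 1d, 7 were lower and none higher, against 1.08% and 0.282% of all genes. Hspb1 fell back from 169 ± 85.7 to 12.6 ± 8.09 CPM (SD, n = 6, log2 fold change -3.75, SE 0.44, adjusted p = 0.00136), and Atf5 (-1.03, SE 0.13), Maff (-3.23, SE 0.65) and Mxd1 (-0.59, SE 0.08) were lower together with Lif (-5.99, SE 1.20), Il11 (-7.52, SE 1.62) and Mmp13 (-4.74, SE 0.99). With SAH 1d-3 and SAH 7d-5 left out of the fit, 40 genes were lower and 5 higher, against 7.49% and 6.13% of all genes, among them 12 of the AP-1 targets, 7 genes of the IL-6 input and 5 of the C/EBP targets that were lower.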

How the data were processed

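RNA of 18 cortices, 1 library per rat, was sequenced on an Illumina HiSeq2500. The authors deposited gene counts, not normalized, and FPKM values, scaled to library size and transcript length. The submitters' processing notes name fastp, HISAT2 and DESeq2 1.16.1, and a mouse build, mm9, whereas the methods name the rat genome Rnor_6.0. The counting program is not given in the sources used here. Library numbers are those of the columns, and no 2 libraries held identical values.

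Tests on counts used edgeR 4.0.16 (quasi-likelihood F, R 4.3.3), 12 libraries per comparison, after TMM scaling and filterByExpr over all 18 libraries, with Benjamini-Hochberg adjustment over all 18444 genes tested. DEGs also passed a log2 fold change of 1. DESeq2 1.42.0, limma 3.58.1 with voom, other filters, FPKM with pseudocounts of 1 and 0.1, the replicate block and left-out libraries were alternatives. Named list genes were at most 4 per list and comparison with the smallest adjusted p, and any list gene at 0 in a group. The 10 factors, gene lists and tests were chosen with earlier results of these data known. P-values measure the spread between rats. The scripts were tested on simulated data.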

Additional observations from a re-analysis of the deposited data

Results flagged for a closer look

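Of 30 groups of 6 libraries tested on the log2 CPM scale, 4 had a library beyond the critical value of Dixon's test (gap over range above 0.625), where chance flags about 1 group in 20. They were Myc in SAH 1d-3 (49.2 CPM, gap over range 0.74), Myc in SAH 7d-5 (22.1 CPM, 0.748), Runx1 in SAH 7d-5 (8.26 CPM, 0.888) and Klf6 in sham-1, which was low (6.96 CPM, 0.75). The 30 groups draw on the same libraries, so they are not independent. Over all 18444 genes, 38.7% had their highest 7-day value in SAH 7d-5, and 33.1% had their highest 1-day value in SAH 1d-3. The share of all genes flagged by this rule was not tested. The count of 4 therefore cannot be read as an excess particular to the factors.

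The change from sham differed between 7 days and 1 day for 2 ratios, by an exact permutation test of SAH 7d against SAH 1d, with log2 differences of -1.51 for Fosl1 over Fosl2 and -2.50 for Atf3 over Jun. It also differed in edgeR for 7 genes of the lists, with log2 differences of -1.03 for Atf5, -3.23 for Maff, -0.59 for Mxd1, -5.99 for Lif, -4.74 for Mmp13, -7.52 for Il11 and -3.75 for Hspb1. For Atf3 over Jun the exact permutation p, not adjusted, ranged from 0.00216 to 0.0563 over the left-out libraries.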

How the results depend on the processing

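At 1 day, 7 of the 10 factors were called in every fit that left out 1 library except that without SAH 1d replicate 6, where Runx1 joined them. At 7 days against sham, DESeq2 called 2 factors. Between 7 days and 1 day, where edgeR called 0, DESeq2 called 2, voom 6, the fit of all 18 libraries 2, limma on FPKM 1 with a pseudocount of 1 and 1 with 0.1, and the fit that left out SAH 1d-3 together with SAH 7d-5 called 6. With 1 library left out the count ranged from 0 to 5, being 5 when SAH 7d-5 was left out and 1 for SAH 1d-3. The cause was not tested.

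The sign turned for Klf6 at 7 days against sham in voom (-0.10) and without both libraries (-0.06), with a range of -0.06 to 0.25 over left-out libraries, for Fosl2 between 7 days and 1 day in voom (0.35), and for Runx1 in that comparison over left-out libraries (-0.75 to 0.45). The ratio of Klf4 to Klf6 between 7 days and 1 day went from -0.10 to 0.01 without both libraries and ranged from -0.22 to 0.04 over left-out ones. Fosl1 at 1 day lost its call with limma on FPKM with a pseudocount of 1 and no filter (adjusted p = 0.0592).

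Replicate numbers did not pair the rats, the correlation of same-numbered libraries being -0.25 to 0.20 over the 3 comparisons. With the replicate block, 7, 0 and 0 factors were called in the same order of comparisons, and over all genes 3979, 0 and 29 in place of 4684, 0 and 252. Libraries correlated best with their own number in 0, 1 and 1 cases.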
